A study of Mus musculus with 3 samples.

Results

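Immediate early and stress response genes are the genes that cells switch on within minutes of a stimulus, including the stimulus of being taken out of a tissue. The set described here held 37 named genes, listed by symbol with no threshold on a value but with earlier results of these data known, out of 32285 genes listed in the count tables. All 37 were found. They were read as unique molecular identifiers (UMIs, which count captured RNA molecules) in single cells of damaged mouse skeletal muscle, and the comparison asked whether their level differed between libraries or between cell classes. The 3 groups were young mice given phosphate-buffered saline (PBS), old mice given PBS, and old mice given rMETRNL, the recombinant form of the secreted protein meteorin-like. In all 3 groups the tibialis anterior muscle of C57/BL6J mice had been damaged with BaCl2 and was collected 4 days later, and the treatment was given into the muscle after the damage. By the methods, muscles of several mice were pooled before the cells were captured, so each group was 1 library with no replicate. The contrast named age is old PBS over young PBS, the contrast named treatment is old rMETRNL over old PBS, and both use the same old PBS library. No test between groups was possible, no p-value is given, and every interval is a 95% interval that covers counting error only.

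Many of these genes are low in resting cells and are switched on by transcription factors that are already present, so that no new protein is needed. Serum response factor binds CArG boxes and CREB binds cyclic AMP response elements in their promoters, and many of the proteins they encode are transcription factors themselves or switch the response off again. In muscle they follow injury, inflammation and mechanical load, and they are also known to be raised by enzymatic digestion of the tissue at body temperature, so a level in a dissociated cell can hold both. The methods describe mincing and enzyme digestion of muscle for flow cytometry and sorting. For these libraries they name only single-cell suspensions, without the steps. No sample of undissociated tissue was analysed here. Transcription in the tissue and transcription while the cells were prepared therefore cannot be told apart.

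Promoter sequence was read from RefSeq windows of GRCm38.p6 that hold the 250 bases before and the 50 bases after each gene's start, which were found for 30 of the 37 genes. The CRE, spelled TGACGTCA, was in the windows of 3 of the 30 (10%), Btg2, Dusp1 and Maff, and in 2.03% of all 27025 genes with a window. The CArG box was in the windows of 3 of the 30 (10%), Dusp5, Egr2 and Zfp36, against 1.81% of all genes. The letters TATAAA were in 7 windows (23.3%) against 15.7%, and in 6 of the 7 before the start, while that of Junb began at the start itself. The letters TGACTCA, which AP-1 binds, were in 1 window (3.33%), that of Ddit3, against 5.95%. The ATF4 letters TGATGCAA were in 2 (6.67%), Atf3 and Gadd45g, against 1.03%, and the EGR letters GCGTGGGCG in 1 (3.33%), Maff, against 0.707%. The NF-kappaB motif was in 0 of 30 windows and in 0.174% of all windows. All motifs were searched on both strands, and a match is a description of the letters and not of a bound site. The 250 bases before the start of Fos and Jun are shown because they encode the partners of the AP-1 dimer and their levels differed between libraries in different ways. Capitals mark the TATAAA match of Fos, which began 33 bases before the start, and the window of Jun held none of the 7 motifs.
Fos, chr12:85473640-85473889, plus strand: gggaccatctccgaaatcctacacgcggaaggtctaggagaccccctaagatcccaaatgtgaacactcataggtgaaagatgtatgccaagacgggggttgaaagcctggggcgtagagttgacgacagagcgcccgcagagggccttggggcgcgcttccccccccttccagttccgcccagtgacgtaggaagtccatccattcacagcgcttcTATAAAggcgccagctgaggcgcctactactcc
Jun, chr4:95052223-95052472, minus strand: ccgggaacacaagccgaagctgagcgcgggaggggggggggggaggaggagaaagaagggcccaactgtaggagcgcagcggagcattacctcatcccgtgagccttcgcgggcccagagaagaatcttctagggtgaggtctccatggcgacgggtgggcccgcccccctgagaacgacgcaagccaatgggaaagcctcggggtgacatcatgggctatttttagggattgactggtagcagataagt
The next 30-base stretches show the CArG matches in capitals, shown because Egr2 and Zfp36 were among the genes that differed between libraries in endothelial-like cells. Dusp5 held 2 matches side by side, and Egr2, which has several starts, held another match before a start that is not shown.
Egr2, chr10:67537787-67537816, plus strand: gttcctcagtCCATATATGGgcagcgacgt
Zfp36, chr7:28379267-28379296, minus strand: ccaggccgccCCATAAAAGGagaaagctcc
Dusp5, chr19:53529058-53529087, plus strand: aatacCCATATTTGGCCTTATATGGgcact
The last 3 stretches show the CRE matches in capitals.
Btg2, chr1:134079303-134079332, minus strand: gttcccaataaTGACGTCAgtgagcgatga
Dusp1, chr17:26508597-26508626, minus strand: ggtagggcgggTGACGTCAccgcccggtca
Maff, chr15:79347480-79347509, plus strand: ggctggggcggTGACGTCActgcatgactg

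The 3 libraries held 38748 barcodes (12168 for young PBS, 12568 for old PBS and 14012 for old rMETRNL) and between 179295668 and 228966697 UMIs each. After filters on cells and removal of 3655 doublet calls, 31592 cells were kept, with a median of 13676 to 15092 UMIs a cell. Between 58 and 80 barcodes were shared by each pair of libraries and 13 by all 3. The cells fell into 23 clusters, built without the 37 genes, of which 1 with 60 cells was left unnamed. The 7 classes with at least 100 cells in every library were used: macrophage/monocyte-like (6246, 6069 and 6835 cells in young PBS, old PBS and old rMETRNL), dendritic-like (659, 380 and 669), T/NK-like (212, 186 and 123), FAP-like (1724, 1408 and 1834), tenocyte-like (180, 118 and 212), endothelial-like (648, 921 and 964) and myogenic (464, 206 and 432; stem cells, myoblasts and myocytes together). FAPs are fibro/adipogenic progenitors, the matrix-producing cells of muscle. Levels are given as CPM, the UMIs of a gene per 1000000 UMIs of the class in a library. Where 3 values follow each other, the first is that of young PBS, the second that of old PBS and the last that of old rMETRNL.

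The summed level of the 37 genes differed more between cell classes than between libraries. It was 10483, 10378 and 9933 CPM in macrophage/monocyte-like cells, 11425, 11568 and 11688 CPM in dendritic-like cells, and 7489, 7203 and 8239 CPM in T/NK-like cells. It was 13304, 14487 and 13126 CPM in FAP-like cells and 13783, 14014 and 14196 CPM in tenocyte-like cells. Endothelial-like cells were at 12912, 17729 and 13753 CPM, and myogenic cells were lowest in every library at 3617, 4132 and 3681 CPM. Endothelial-like cells were the class in which the libraries stood furthest apart: the sum was 1.37 times as high in old PBS as in young PBS (interval 1.36 to 1.38) and 0.776 times as high in old rMETRNL as in old PBS (interval 0.770 to 0.782). In the other 6 classes the age ratio of the sum lay between 0.962 and 1.14 and the treatment ratio between 0.891 and 1.14. Over all kept cells the sum was 10859, 11335 and 10620 CPM.

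The AP-1 subunits, which pair as Fos and Jun family dimers, were spread unevenly over the classes. Fos was highest in tenocyte-like cells (1662, 1830 and 1464 CPM) and lowest in T/NK-like cells (162, 136 and 175 CPM) in all 3 libraries. Fosl1 was highest in myogenic cells (87.8, 127 and 111 CPM), the class with the lowest summed level, and lowest in T/NK-like cells at 1.72, 1.86 and 2.35 CPM. Fosl2 had its highest level in T/NK-like cells in each library, and in young PBS its interval overlapped that of endothelial-like cells. Junb was highest in endothelial-like cells in all 3 libraries (1570, 2171 and 1567 CPM). For Fosb, Jun and Jund the highest class changed with the library: Jun was highest in FAP-like cells in young PBS (1554 CPM) and old rMETRNL (1371 CPM) and in endothelial-like cells in old PBS (1366 CPM), where FAP-like cells at 1331 CPM could not be set apart from them. In old rMETRNL its interval in FAP-like cells overlapped that of tenocyte-like cells. Fosb was highest in FAP-like cells in old PBS, where its interval also overlapped that of tenocyte-like cells.

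Egr1, a zinc finger factor induced by growth factors and stretch, was highest in tenocyte-like cells (1290, 1543 and 1477 CPM) and lowest in T/NK-like cells (38.9, 49.0 and 31.8 CPM). Egr2 and Egr3, its relatives, were also lowest in T/NK-like cells in all 3 libraries, with between 2.35 and 7.06 CPM. Ier3, a survival-related early gene, was highest in endothelial-like cells (861, 1204 and 841 CPM) and Ier5 in FAP-like cells (404, 521 and 436 CPM), where its interval overlapped that of tenocyte-like cells in young PBS and old rMETRNL, while the highest class for Ier2 was endothelial-like in the 2 PBS libraries and T/NK-like in old rMETRNL, set apart from the next class in old PBS alone. Of the stress factors, Atf3 and Atf4 were highest in endothelial-like cells in all 3 libraries. Ddit3, which encodes CHOP, was highest in macrophage/monocyte-like cells (71.5, 77.3 and 75.6 CPM), although in old PBS its interval overlapped that of tenocyte-like cells. Ddit4, an inhibitor of mTORC1 signalling, was highest in endothelial-like cells (109, 102 and 97.7 CPM), with an interval that overlapped that of T/NK-like cells in old rMETRNL, and lowest in macrophage/monocyte-like cells (9.61, 5.49 and 6.18 CPM).

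Btg1 and Btg2 are antiproliferative proteins that act in mRNA deadenylation. Btg1 was highest in dendritic-like cells (1063, 1314 and 1135 CPM) in every library, whereas Btg2 was highest there in young PBS and old rMETRNL and in endothelial-like cells in old PBS. All 3 KLF factors, Klf2, Klf6 and Klf10, were highest in endothelial-like cells in every library, and Klf2, a flow-responsive factor, was at 467, 508 and 417 CPM there. Zfp36 and Zfp36l1 bind AU-rich elements and speed the decay of cytokine mRNAs. Zfp36l1 was highest in FAP-like cells in all 3 libraries, and Zfp36 had a different highest class in each library. In young PBS that class was macrophage/monocyte-like, with an interval that overlapped that of dendritic-like cells. The nuclear receptor Nr4a3 showed one of the widest ranges, with 356, 526 and 393 CPM in dendritic-like cells and 3.53, 10.2 and 4.13 CPM in myogenic cells. Its relative Nr4a2 was highest in T/NK-like cells (261, 237 and 306 CPM), and in old PBS its interval overlapped that of dendritic-like cells.

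The DUSP phosphatases switch off MAP kinases. Dusp6, which acts on ERK, was highest in endothelial-like cells (118, 114 and 103 CPM) and lowest in dendritic-like cells (2.54, 3.80 and 4.15 CPM), while Dusp2 was lowest in FAP-like cells at 2.94, 3.64 and 3.37 CPM and highest in T/NK-like or dendritic-like cells. Dusp5 was also highest in T/NK-like or dendritic-like cells, which could not be set apart in any library, and Dusp1 in tenocyte-like cells in young PBS and endothelial-like cells in the other two libraries, although in old rMETRNL its intervals in these classes overlapped. The GADD45 genes encode growth arrest and DNA damage proteins. Gadd45a was highest in tenocyte-like cells (174, 102 and 104 CPM) and Gadd45b in dendritic-like cells (609, 692 and 606 CPM) in all 3 libraries, and Gadd45g in tenocyte-like or endothelial-like cells. Myc, the growth regulator, was highest in tenocyte-like cells (321, 327 and 371 CPM) and lowest in macrophage/monocyte-like cells (9.34, 10.6 and 10.1 CPM), and Maff, a small MAF factor, was also highest in tenocyte-like cells. For both, the interval in old PBS overlapped that of FAP-like cells. Rgs1 and Rgs2 restrain G protein signalling and lie near each other on chromosome 1 of mm10 (Rgs1 from 144242296 to 144249242, Rgs2 from 143999338 to 144004161, both on the minus strand). Their highest classes differed: Rgs1 was highest in dendritic-like cells (530.5, 655 and 592 CPM; in young PBS its interval overlapped that of macrophage/monocyte-like cells) and Rgs2 in T/NK-like cells (423, 482 and 552 CPM).

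**Figure D1:**
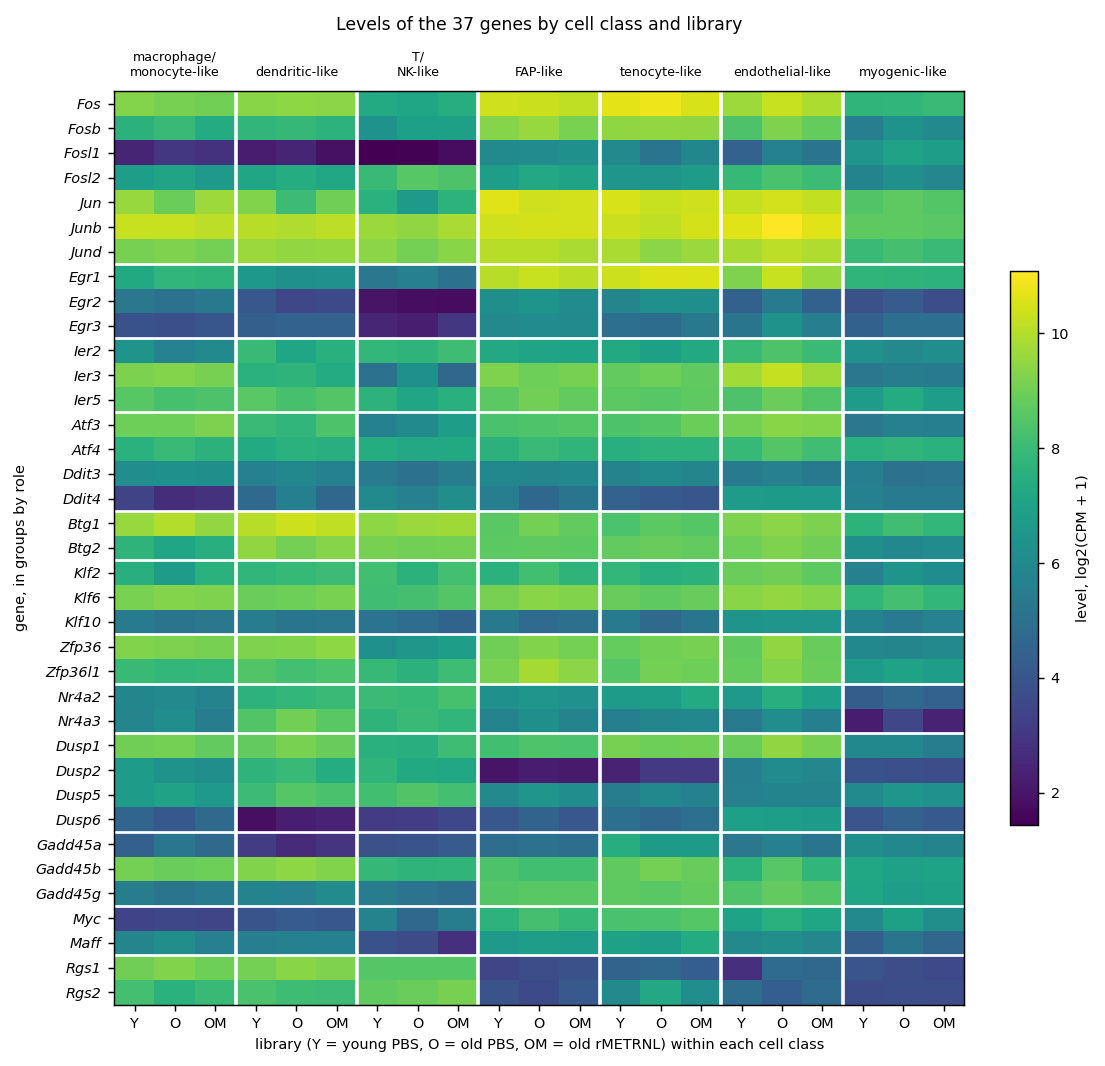
Level of each of the 37 genes as log2(CPM + 1) in colour, with genes in rows grouped by role and the 3 libraries of each of the 7 cell classes in columns. The myogenic columns, with the lowest summed levels of 3617 to 4132 CPM, stand apart from the rest, and Fosl1 is the row whose highest level is in them.

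Library differences of single genes were read as ratios of CPM, and a gene was called when it was past 1.5-fold in either direction and had at least 100 UMIs in the class. In macrophage/monocyte-like cells 2 of the 37 genes were called higher and 5 lower in old PBS than in young PBS, beside 5.24% and 5.7% of all 13232 genes tested there. Between old rMETRNL and old PBS, 3 genes were called higher and 2 lower, beside 4.73% and 2.66% of all genes. The median log2 ratio of the 37 genes was 0.01 for age and -0.08 for treatment, and that of all genes was -0.01 and 0.05. For age 19 genes were above and 18 below a ratio of 1, beside 49.2% of all genes above. For treatment 15 were above and 22 below, beside 58.3% of all genes above. With depth bins weighted equally the medians were 0.18 and -0.19, and in bins of equal depth the age ratio of the sum was 0.997 under 2000 UMIs, 1.27 from 2000 to 5000, 1.21 from 5000 to 10000, 1.02 from 10000 to 20000 and 0.953 above.

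**Figure D2:**
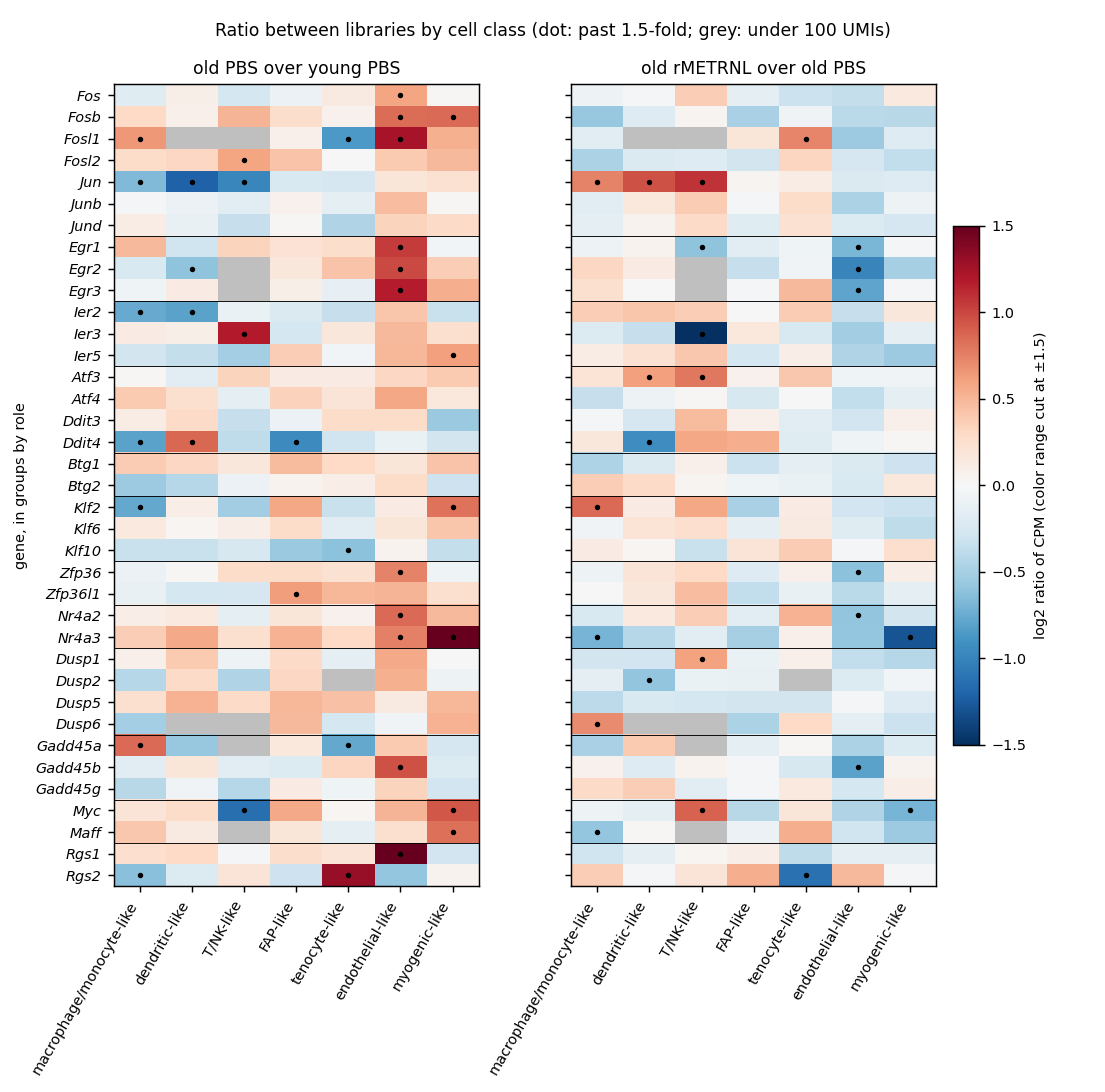
Log2 ratio of CPM for each of the 37 genes (rows, grouped by role) in each of 7 cell classes (columns), for old PBS over young PBS on the left and old rMETRNL over old PBS on the right, with dots at ratios past 1.5-fold. The endothelial-like column is above 0 for 34 of 37 genes on the left and below 0 for 36 of 37 on the right, while the macrophage/monocyte-like column is mixed.

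Jun and Klf2 were called in both contrasts in macrophage/monocyte-like cells. The level of Jun was 772, 489 and 817 CPM, so that old PBS stood below both others. The age ratio was 0.634 (interval 0.626 to 0.641) and the treatment ratio 1.67 (interval 1.65 to 1.69). Fos, its partner, did not have this pattern, with 623, 549.6 and 521 CPM, and Junb was at 1245, 1229 and 1103 CPM.

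Klf2, which restrains inflammatory activation of macrophages, had the same order as Jun, with 181, 106 and 192 CPM and ratios of 0.587 for age and 1.81 for treatment. Ier2, an early nuclear protein, was at 86.2, 50.9 and 65.6 CPM (age ratio 0.591). Rgs2 was at 296, 191 and 247 CPM (age ratio 0.646), and it is among the genes that lead the Cx3cr1 cluster, which was larger in young PBS. Ddit4 was also lower in old PBS (9.61, 5.49 and 6.18 CPM, age ratio 0.571), at a low level throughout. The 2 genes called higher were Gadd45a, at 20.4, 36.6 and 26.1 CPM (age ratio 1.80, interval 1.70 to 1.90), and Fosl1, at 4.44, 7.0 and 6.28 CPM (age ratio 1.58, interval 1.4 to 1.78). The Fosl1 ratio was 1.33 with the stricter cell filter, inside the threshold, and 3.65 with depth bins weighted equally. The third gene called higher with treatment was Dusp6, at 23.2, 16.3 and 26.5 CPM (treatment ratio 1.63), and with bins of cell depth weighted equally its ratio was 0.897. Those called lower with treatment were Nr4a3, at 55.7, 71.7 and 44.2 CPM (ratio 0.616), and Maff, at 55.5, 73.4 and 48.9 CPM (ratio 0.667). The Maff ratio was at the threshold, past it in 7 of 12 alternatives and 0.708 with the stricter cell filter. Just inside the threshold lay Fosb at a treatment ratio of 0.674 (199, 245 and 165 CPM) and Btg2 at an age ratio of 0.683 (208, 142 and 183 CPM).

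Macrophage/monocyte-like cells formed 7 clusters whose sizes differed between libraries, so that the ratio over the class also held their proportions. The largest was the Cx3cr1 cluster in young PBS (1820 of 6246 cells, with 718 cells in the old PBS library and 1377 with rMETRNL) and the Atp6v0d2 cluster in old PBS (1498 of 6069 cells). Jun was highest in the Cx3cr1 cluster at 1503, 1420 and 1649 CPM, and within that cluster its age ratio was 0.945. The age interval of Jun lay below 1 in 7 of 7 clusters, from 0.552 in the interferon-response (Ifit1bl1) cluster to 0.945, and its treatment interval above 1 in 7 of 7, from 1.16 to 1.96. With the clusters weighted equally its levels were 712, 576 and 820 CPM and its ratios 0.809 and 1.42, inside 1.5-fold. Klf2 behaved in a like way, with equal-weight levels of 169.97, 134 and 198 CPM, ratios of 0.789 and 1.48, and treatment intervals above 1 in 7 of 7 clusters. Equal weights also brought the age ratios of Ier2 (0.703) and Rgs2 (0.813) inside 1.5-fold, and with depth bins weighted equally the age ratios were 0.716 for Jun, 0.754 for Ier2, 0.756 for Klf2, 0.683 for Rgs2 and 0.786 for Ddit4. Gadd45a stayed past 1.5-fold in each of 12 alternatives. The 10 FAP markers summed to 441, 247 and 324 CPM in macrophage/monocyte-like cells, lowest in old PBS as Jun was, and their part in its levels was not tested.

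Egr1 was uneven among these clusters. It was highest in the Cd163 cluster, whose leading genes include Lyve1, at 593, 950 and 811 CPM, and lowest in the Atp6v0d2 cluster at 28.2, 41.0 and 33.1 CPM. In the Cx3cr1 cluster it was at 165, 432 and 193 CPM, with ratios of 2.62 for age and 0.446 for treatment, so that old PBS was far above both others. Its class ratio for age was 1.4, and with clusters weighted equally it was 1.61, with 5 intervals above 1 and 2 below. Atf4, the translation-controlled stress factor, had an age interval above 1 in 7 of 7 clusters (ratios 1.14 to 1.68), although its class ratio of 1.31 was inside 1.5-fold. Gadd45a had 5 of 7 age intervals above 1 and an equal-weight ratio of 1.53. Maff had treatment intervals below 1 in 7 of 7 clusters, with ratios from 0.532 to 0.844.

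**Figure D3:**
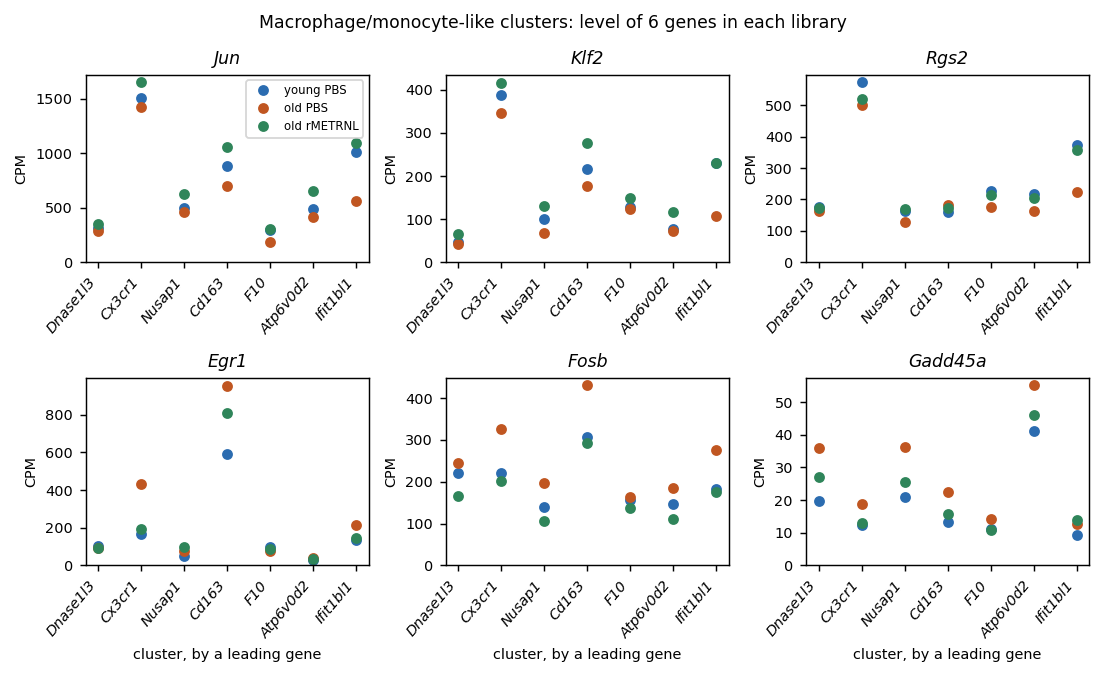
Level in CPM of 6 of the genes in each of the 7 macrophage/monocyte-like clusters, named on the horizontal axis by a leading gene, with 1 point per library. The Jun point of old PBS is the lowest of the 3 in every cluster, and the Egr1 point of old PBS in the Cx3cr1 cluster, at 432 CPM, stands above 165 and 193 CPM.

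In dendritic-like cells, 35 of the 37 genes had 100 UMIs or more, and the other two were Fosl1 and Dusp6. For age, 1 was called higher and 3 lower, beside 4.57% and 6.66% of all genes, and for treatment 2 higher and 2 lower, beside 4.84% and 3.87%. The age count of 4 became 7 with clusters weighted equally and 10 with depth bins weighted equally, where 17.8% and 27.9% of all genes were past 1.5-fold. Jun again had its lowest level in old PBS, with 614, 265 and 513 CPM and ratios of 0.431 and 1.94. The 10 FAP markers were also lowest there (577, 313 and 467 CPM), and their part in the Jun levels was not tested. Ddit4 went the other way at 25.9, 47.0 and 24.6 CPM (ratios 1.81 and 0.524, but 1.35 and 0.740 with depth bins weighted equally). Ier2 (243, 139 and 186 CPM) and Egr2 (15.5, 10.1 and 11.1 CPM) were called lower for age, Egr2 at a ratio of 0.724 with the looser cell filter, Atf3 (243, 217 and 333 CPM, ratio 1.53, but 0.621 with depth bins weighted equally) was called higher with treatment, and Dusp2 (209, 254 and 169 CPM) was called lower with treatment.

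In T/NK-like cells, a small class with 123 to 212 cells a library, 31 genes could be compared, without Fosl1, Egr2, Egr3, Dusp6, Gadd45a and Maff. For age, 2 were called higher and 2 lower, beside 5.66% and 4.07% of all genes, and for treatment 4 higher and 2 lower, beside 3.99% and 6.09%. These cells were a T cell cluster (107, 149 and 84 cells) and a cluster led by Gzma and Xcl1, genes of NK cells (105, 37 and 39 cells), so their mix differed between libraries. Jun was at 192, 97.3 and 206 CPM (ratios 0.506 and 2.11, and further from 1 with depth bins weighted equally, at 0.287 and 3.18), so that in 3 immune classes its level was lowest in old PBS, as it also was in FAP-like cells. Only 2 depth bins had enough T/NK-like cells, and the weighted ratios left out the cells of the others. Myc was at 53.2, 24.2 and 44.7 CPM (ratios 0.455 and 1.85). Within the T cell cluster Myc was at 21.8, 18.4 and 19.6 CPM (age ratio 0.844, interval 0.411 to 1.77). Within the NK cluster it was at 73.6, 36.1 and 74.1 CPM (age ratio 0.491, interval 0.281 to 0.818). In cells thinned to 2000 UMIs its class ratios were 0.830 and 1.06. Thinning left 22 of the 31 genes at the minimum UMI count. The thinned ratios of this class are given without an interval, so they cannot show that a call was lost. Ier3 was at 33.2, 76.2 and 24.7 CPM (ratios 2.30 and 0.324). The Ier3 ratios were on the other side of 1 with a looser cell filter, at 0.704 and 1.4. With the looser and the stricter filter no separate B cell cluster was named, and Igkc was among the leading genes of the T cell cluster. The cells of the class therefore also differed. Fosl2 was called higher for age (253, 381 and 334 CPM, ratio 1.5), at the threshold. Atf3 (50.9, 64.5 and 112 CPM) and Dusp1 (188, 177 and 269 CPM) were called higher with treatment, and the ratio of Atf3, 1.73, was 0.953 in cells thinned to 2000 UMIs, while that of Dusp1, 1.52, was 1.14 with doublet calls kept. Egr1 was called lower with treatment at a ratio of 0.648, but its interval of 0.403 to 1.02 held 1. The T/NK-like cells of old PBS also held more UMIs of 12 macrophage and monocyte markers (1853, 2404 and 1888 CPM), and its part in these ratios was not tested.

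FAP-like cells had few genes past the threshold. For age 1 gene was called higher and 1 lower, beside 6.12% and 5.9% of all genes, and for treatment 0 in each direction, beside 4.12% and 3.45%. By counting error alone 26 of 37 genes were higher and 8 lower for age, beside 25.2% and 31.9% of all genes, and 7 were higher and 23 lower with treatment, beside 26.8% and 21.1%. Zfp36l1 was at 571, 881 and 684 CPM, an age ratio of 1.54 (interval 1.52 to 1.57), and it was above 1 in each of the 3 FAP-like clusters with ratios of 1.25 to 1.59. It was inside 1.5-fold in 4 of 12 alternatives, at 1.42 with clusters weighted equally. Ddit4 was at 46.8, 24.2 and 35.3 CPM, with ratios of 0.516 (interval 0.475 to 0.560) for age and 1.46 for treatment. Klf2 (194, 289 and 207 CPM, age ratio 1.49), Myc (206, 305 and 229 CPM, 1.48) and Nr4a3 (52.6, 75.3 and 53.4 CPM, 1.43) lay just inside the threshold. The abundant AP-1 and EGR members differed less, with Fos at 1347, 1264 and 1147 CPM, Jun at 1554, 1331 and 1371 CPM and Egr1 at 1056, 1223 and 1099 CPM. For age 28 of 37 genes were above 1, beside 44.8% of all genes, and for treatment 9 of 37, beside 53.5%. The medians were 0.18 and -0.14 on the log2 scale, beside -0.04 and 0.02 for all genes, and the treatment median was 0.0013 with depth bins weighted equally. In FAP-like cells the macrophage and monocyte markers summed to 467, 614 and 587 CPM. The muscle fibre markers summed to 11.3, 53.4 and 27.4 CPM and the endothelial markers to 18.3, 29.2 and 20.8 CPM. Markers of T/NK cells and of neutrophils were lowest in old PBS. The part of these markers in the ratios was not tested.

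The Pi16 cluster of FAP-like cells differed from the Sfrp1 cluster for some genes. Fosl1 in the Pi16 cluster was at 105, 37.7 and 95.6 CPM (age ratio 0.359, treatment ratio 2.53), and in the Sfrp1 cluster at 58.1, 71.6 and 64.8 CPM (age ratio 1.23). Egr1 in the Pi16 cluster was at 1111, 1593 and 1086 CPM (ratios 1.43 and 0.681), whereas Egr3 there was at 39.7, 23.9 and 35.0 CPM (ratios 0.602 and 1.46). Within 1 cluster, Egr1 and Egr3 thus had ratios on opposite sides of 1. In the cycling FAP-like cluster Myc was at 147, 254 and 147 CPM (age ratio 1.73).

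In tenocyte-like cells 36 genes could be compared, without Dusp2. For age, 1 was called higher and 3 lower, beside 6.09% and 5.01% of all genes, and for treatment 1 higher and 1 lower, beside 3.35% and 4.6%. Rgs2 was at 61.8, 153 and 70.6 CPM (ratios 2.48 and 0.461), the opposite order to that in macrophage/monocyte-like cells. Fosl1 was at 62.6, 34.3 and 57.3 CPM (ratios 0.548 and 1.67), Gadd45a at 174, 102 and 104 CPM (age ratio 0.586) and Klf10, a TGF-beta early gene, at 41.1, 26.7 and 35.0 CPM (age ratio 0.650). In cells thinned to 2000 UMIs the age ratios of Fosl1, Gadd45a and Klf10 were 0.894, 1.10 and 1.26. Thinning left 25 of the 36 genes at the minimum UMI count, with 112 tenocyte-like cells in old PBS. These thinned ratios are given without an interval, so they cannot show that the calls were lost or reversed. The macrophage and monocyte markers summed to 758, 1633 and 1039 CPM in tenocyte-like cells, and their part in the Rgs2 levels was not tested.

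In endothelial-like cells most of the genes had ratios on the same side of 1. For age 11 of 37 were called higher and 0 lower, beside 7.97% and 8.0% of all genes, and for treatment 0 were called higher and 6 lower, beside 5.52% and 4.89%. The median log2 ratio was 0.47 for age and -0.35 for treatment, beside -0.05 and 0.05 for all genes. For age 34 of 37 genes were above 1, with Rgs2, Ddit4 and Dusp6 below, against 45.0% of all genes. For treatment 36 of 37 were below 1, with Rgs2 above, while 56.4% of all genes were above 1.

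All 3 EGR factors were called in both contrasts in endothelial-like cells. Egr1 was at 599, 1241 and 772 CPM (age ratio 2.07, interval 2.0 to 2.14, treatment ratio 0.623). Egr2 was at 20.8, 41.4 and 20.8 CPM (ratios 1.99 and 0.502) and Egr3 at 35.8, 81.2 and 46.7 CPM (ratios 2.27 and 0.576). Old PBS was the highest library for each of them. Of the AP-1 subunits, Fos (818, 1234 and 962 CPM, age ratio 1.51), Fosb (333, 594 and 449 CPM, 1.78) and Fosl1 (21.1, 49.8 and 34.1 CPM, 2.36) were called for age. Jun, which was lowest in old PBS in all 3 immune classes and in FAP-like cells, was at 1202, 1366 and 1172 CPM here (age ratio 1.14).

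The other genes called for age in endothelial-like cells were Zfp36, Nr4a2, Nr4a3, Gadd45b and Rgs1. Gadd45b was at 199, 386 and 221 CPM (ratios 1.94 and 0.573), Zfp36 at 420.0, 706 and 461 CPM (1.68 and 0.652) and Nr4a2 at 97.9, 177 and 117 CPM (1.81 and 0.662, but 1.45 and 0.820 in thinned cells), and these 3 were also called lower with treatment. Nr4a3 was at 41.9, 70.8 and 47.5 CPM (age ratio 1.69). Rgs1 had the largest ratio, 4.72 (interval 3.50 to 6.45), from 5.80, 27.4 and 24.9 CPM, and it is an abundant gene of macrophage/monocyte-like cells (513, 609 and 497 CPM). The 12 macrophage and monocyte markers, all 12 of them detected in each library, summed to 572, 1048 and 971 CPM in endothelial-like cells, and the 8 muscle fibre markers to 15.9, 199 and 38.9 CPM. The 9 endothelial markers summed to 6579, 6744 and 6363 CPM. What part the macrophage and fibre RNA had in the levels of the 37 genes was not tested.

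Endothelial-like cells formed 2 clusters, and the larger was led by Cldn5 and Gpihbp1, genes of capillaries (492, 801 and 801 cells). At a finer resolution endothelial-like cells held a shallow cluster led by Timp4 and Aqp1 (median 2270.5 UMIs, with 117, 512 and 381 cells) and a deeper cluster led by Prnd (median 13461.5 UMIs, with 311, 202 and 347 cells), in different proportions in each library. In the larger cluster Egr1 was at 613, 1469 and 839 CPM (ratios 2.40 and 0.571) and Fos at 887, 1455 and 1029 CPM (1.64 and 0.707). In the Selp and Ackr1 cluster, genes of venules (156, 120 and 163 cells), Egr1 was at 542, 422 and 475 CPM (age ratio 0.777, interval 0.703 to 0.859) and Fos at 543, 442 and 661 CPM (0.815 and 1.5). The age ratios of both genes were thus on opposite sides of 1 in the 2 clusters, in 1 library each. Nr4a2 was higher in old PBS in both clusters, at 166 against 95.8 CPM and at 217 against 106 CPM.

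Depth moved with this result. Endothelial-like cells had a median of 11320, 3948 and 7260 UMIs, and the summed level of the 37 genes was higher in shallow than in deep cells in every library. In young PBS it was 26654 CPM in cells under 2000 UMIs and 11631 CPM in cells of 20000 UMIs or more. In bins of equal depth the age ratio of the sum was 0.809 under 2000 UMIs, 1.26 from 2000 to 5000, 1.34 from 5000 to 10000, 1.15 from 10000 to 20000 and 1.03 above, and the treatment ratio lay between 0.891 and 1.14. With these bins weighted equally, a choice made after the data were seen, the median log2 ratio fell to 0.19 for age and -0.090 for treatment, Fos had an age ratio of 1.06 and Egr2 of 1.0, Zfp36 was at 1.07, and Egr1 (1.51), Egr3 (1.77), Fosb (1.76), Gadd45b (1.73) and Rgs1 (4.51) were past 1.5-fold. The count past 1.5-fold for age was 11 as before, beside 21.3% of all genes, and for treatment it was 1, beside 9.02%, with none of the 6 genes named above past it. The bin under 2000 UMIs, where the age ratio of the sum was 0.809, held 39, 208 and 182 cells. It had the same weight as each other bin, and the weighted ratios have no interval.

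**Figure D4:**
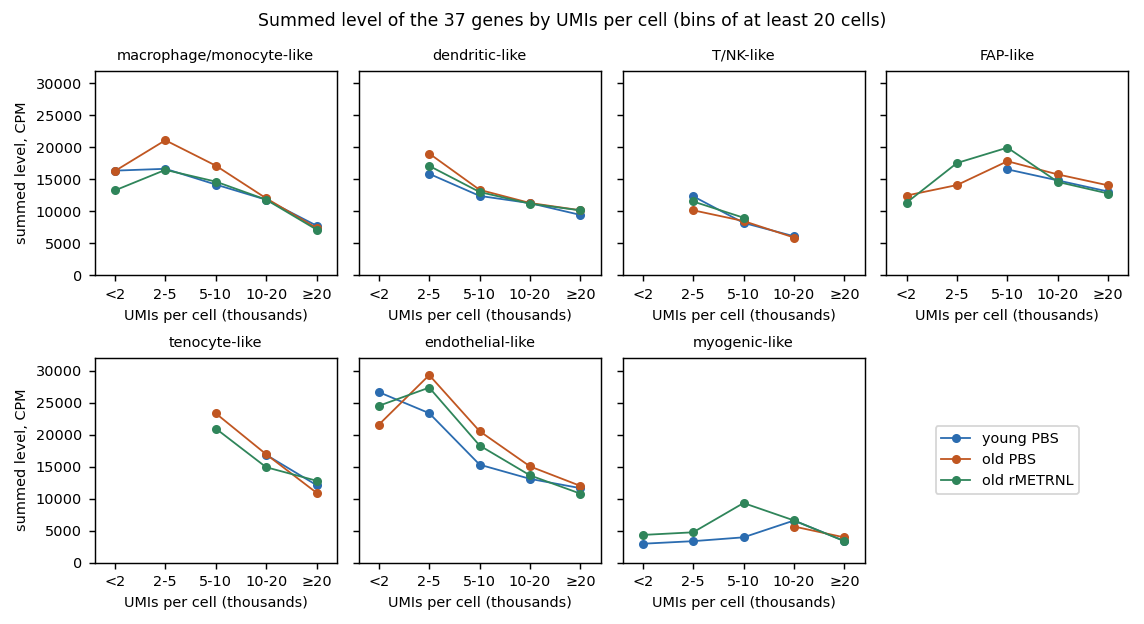
Summed level of the 37 genes in CPM against UMIs per cell in bins of at least 20 cells, with 1 panel per cell class and 1 line per library. In endothelial-like and macrophage/monocyte-like cells the lines fall from 2000 to 5000 UMIs toward deeper cells, the first bin is below the second in all of them but that of endothelial-like cells in young PBS, and the endothelial-like line of old PBS is above that of young PBS between 2000 and 20000 UMIs.

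Myogenic cells had the lowest sum and 6 genes called higher for age with 0 lower, beside 4.21% and 3.28% of all genes, and 0 higher and 2 lower with treatment, beside 2.63% and 3.72%. The age count was 13 when CPM was averaged over cells (14.6% of all genes), and with the stricter cell filter the counts were 10 for age (13.7%) and 10 for treatment (9.49%). With that filter the myogenic class held 140, 46 and 176 cells, against 464, 206 and 432 here, so its cells also differed. Myc was at 62.3, 119 and 73.1 CPM (ratios 1.91 and 0.615). It was past 1.5-fold in 10 of 11 alternatives for age (lowest ratio 1.46) and in 8 of 11 for treatment (highest ratio 0.702). Nr4a3 was at 3.53, 10.2 and 4.13 CPM (2.89 and 0.406). At this low level the Nr4a3 age ratio ran from 1.69 with doublet calls kept to 5.48 when CPM was averaged over cells, and its treatment ratio from 0.236 to 0.635. Fosb (46.5, 84.2 and 63.3 CPM, age ratio 1.81), Maff (19.6, 34.8 and 24.0 CPM, 1.77), Klf2 (48.9, 86.1 and 68.7 CPM, 1.76) and Ier5 (107, 163 and 112 CPM, 1.53) were called for age. Fosb was at an age ratio of 0.914 with depth bins weighted equally, Klf2 at 0.912 with a stricter cell filter, and Ier5 at 1.16 in thinned cells. The FAP markers summed to 377, 566 and 343 CPM in myogenic cells and the endothelial markers to 9.76, 18.5 and 12.3 CPM, both highest in old PBS, and their part in these ratios was not tested. Egr1 was at 216, 209.8 and 205 CPM. With each cell thinned to 2000 UMIs the median log2 ratio for treatment turned from -0.15 to 0.21 and that for age from 0.24 to -0.018.

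Measured per cell, at 2000 UMIs a cell, the 37 genes together took a median of 20, 20 and 19 UMIs in macrophage/monocyte-like cells, 24, 26 and 24 in FAP-like cells, 26, 40 and 30 in endothelial-like cells and 7, 6 and 7 in myogenic cells. In endothelial-like cells 39, 208 and 182 shallower cells were left out. Cells with 0 UMIs of the whole set made up 2.05% or less of each class and library. Free RNA in the droplets was not estimated, and each class also held UMIs of other classes' markers, so a UMI is not proof of expression in that cell. At the same depth the share of endothelial-like cells with an Egr1 UMI was 49.9% (exact binomial interval 45.9 to 54.0), 67.7% (64.2 to 71.2) and 56.8% (53.2 to 60.3), and without thinning it was 77.5%, 80.8% and 77.6%. T/NK-like cells, the class with the lowest Egr1 level, were at 8.21%, 9.73% and 4.39% with thinning and at 22.2%, 29.0% and 17.9% without.

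Whether cells that held 1 of the genes also held another was read in the same thinned cells, as the number of cells with both over the number expected if the 2 were independent in the class. In macrophage/monocyte-like cells 591 pairs could be read in all 3 libraries, their median ratio was 1.10, and 418 were above 1 in each library. Egr1 and Egr3 had a ratio of 2.60 (2.32 to 2.70 over libraries), Egr1 and Egr2 1.95, and Nr4a2 and Nr4a3 1.90. The median over partners was below 1 for Dusp6 (0.915 over 28 partners), Ddit4 (0.979 over 15) and Gadd45a (0.986 over 26), and Dusp6 was at 0.450 with Nr4a3, 0.517 with Dusp5 and 0.549 with Maff. In FAP-like cells 492 pairs had a median of 1.09 and 345 were above 1 in each library. Fos and Fosl1 were at 0.771 there, and Atf3 and Klf2 at 1.39. The points share their cells and libraries and the clusters within a class, so these are descriptions.

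**Figure D5:**
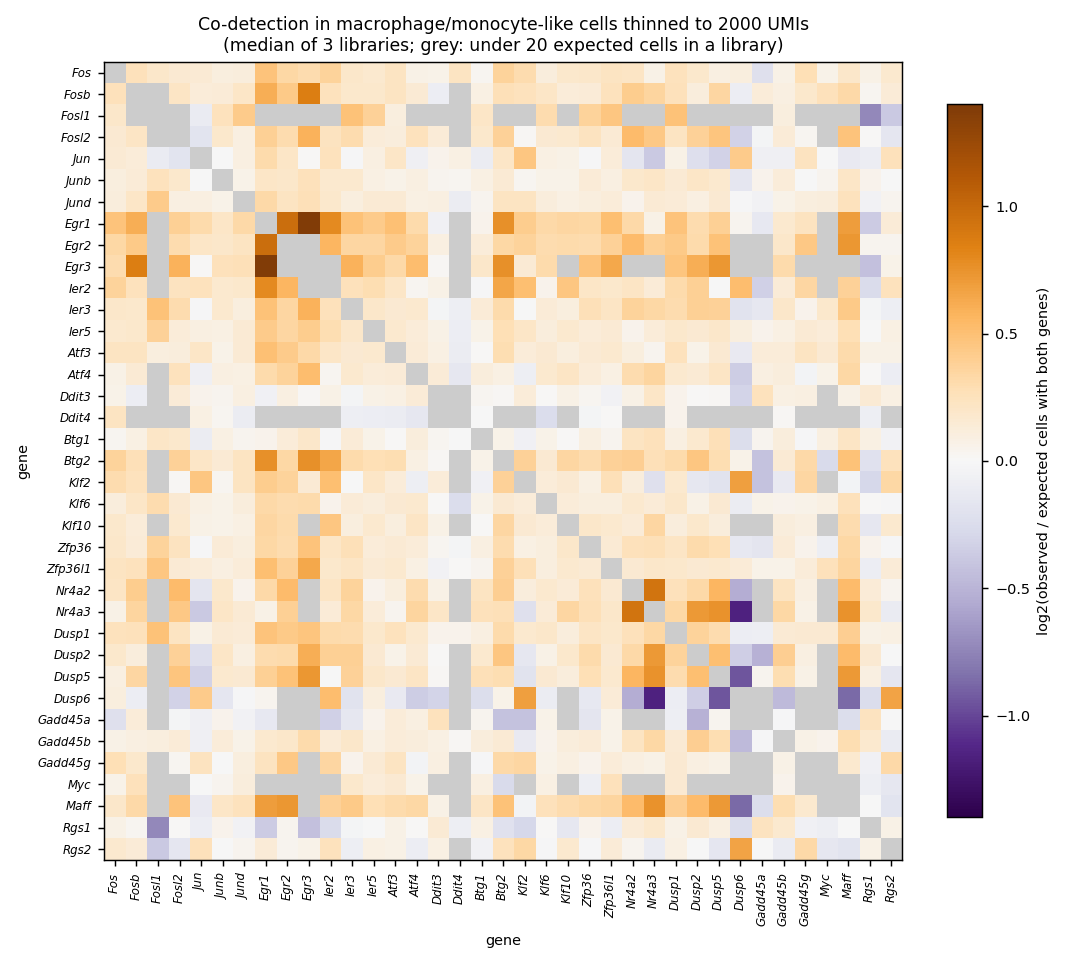
Log2 of observed over expected cells with both of 2 genes, for all pairs among the 37 genes in macrophage/monocyte-like cells thinned to 2000 UMIs, as the median of 3 libraries. Most squares are above 0, the Egr1 and Egr3 square is among the strongest, and the row of Dusp6 is mostly below 0.

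Other stress genes that are not members were read from 3 lists for comparison. Of 12 heat shock genes, which encode chaperones, 0 were called higher and 3 lower for age in macrophage/monocyte-like cells, and 4 higher and 0 lower with treatment. In tenocyte-like cells 7 were lower for age and 7 higher with treatment, in T/NK-like cells 5 and 7, in dendritic-like cells 3 and 3, in myogenic cells 2 and 5 and in FAP-like cells 2 and 4. In endothelial-like cells 0 of 12 were called in either contrast. Hspa1a, an inducible chaperone, was at 1396, 668 and 1388 CPM in macrophage/monocyte-like cells, lowest in old PBS as Jun was, and at 2278, 2529 and 2620 CPM in endothelial-like cells. Of 15 NF-kappaB and cytokine early genes, 4 were higher and 1 lower for age in endothelial-like cells, among them Socs3 at 403, 719 and 507 CPM and Il6 at 233, 443 and 301 CPM. With treatment 1 was higher and 1 lower there. In macrophage/monocyte-like cells 1 was higher and 2 lower for age, and 2 higher and 1 lower with treatment. Of the targets of ATF4 and CHOP, 0 of 13 were called for age and 1, higher, with treatment in macrophage/monocyte-like cells. In endothelial-like cells 2 of 11 were lower for age and 3 higher with treatment, and in FAP-like cells 1 of 13 was higher for age and 4 higher with treatment. These lists are short, and the shares of all genes called in each class are those given above.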

How the data were processed

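Single cells of damaged tibialis anterior muscle were captured with a droplet 3-prime kit, 1 library per group. The authors deposited, per the file headers, UMI counts per gene and barcode made with Cell Ranger 5.0.0. The submitters' processing notes name Cell Ranger 5.0.0 and 3.1.0 and mm10, without roles. The annotation used is not given in the sources used here.

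Barcodes with fewer than 500 genes or over 10% mitochondrial UMIs were removed. Scrublet's automatic threshold made 0 calls, so the highest doublet scores were removed at 0.8% per 1000 barcodes. Cells were clustered with scanpy 1.11.5 (2000 variable genes without the 37 members, 30 components, 20 neighbours, Leiden resolution 0.8, seed 0) and named by markers. The members, the marker lists and the related lists were chosen with earlier results of these data known.

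UMIs were summed per class and library and divided by the class total (CPM), with no other scaling. Ratios had 0.5 added to each count, and genes with at least 100 UMIs in a class over the 3 libraries were compared. Called means past 1.5-fold. With 1 library per group there is no replicate spread, and exact Poisson, exact binomial and conditional exact intervals cover counting error only. A level in a class does not tell fewer expressing cells from less RNA per cell. Every member was named, and in macrophage/monocyte-like and FAP-like cells each called member was given with its levels. The 2 identifiers of Ddit3 were summed. All 38 identifiers matched GENCODE M21. The ratio calculation was tested on simulated counts. Alternatives covered scaling, count minimum, fold, thinning, resolution and cell filters. Classes with fewer than 100 cells in a library were left out of the main results, but not of the alternatives. With the stricter cell filter old PBS held 89 tenocyte-like and 46 myogenic cells. Python 3.11.15, numpy 2.4.6, scipy 1.17.1 and pandas 2.3.3 were used.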

Additional observations from a re-analysis of the deposited data

Results flagged for a closer look

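Several genes had ratios past 1.5-fold in opposite directions in 2 cell classes, with counting intervals that do not overlap. Each class was 1 library per group, so the differences were not tested, and the pairs were picked as the widest of 7 classes. Fosl1 had an age ratio of 2.36 in endothelial-like cells and 0.548 in tenocyte-like cells, 4.30 times apart, and the tenocyte-like ratio was 0.894 in thinned cells. Rgs2 had 2.48 in tenocyte-like cells and 0.646 in macrophage/monocyte-like cells, 3.84 times apart, and the macrophage/monocyte-like ratio was 0.813 with clusters weighted equally. Myc had an age ratio of 1.91 in myogenic cells and 0.455 in T/NK-like cells, 4.20 times apart, and its treatment ratios in these classes, 0.615 and 1.85, were 3.0 times apart in the other direction. Over the alternatives the myogenic ratios of Myc reached 1.46 for age and 0.702 for treatment, inside 1.5-fold. In thinned cells the T/NK-like ratios of Myc were 0.830 and 1.06, and the T/NK-like class mixed a T cell cluster (Myc age ratio 0.844) with an NK cluster (0.491) in different proportions. Ddit4 had 1.81 in dendritic-like cells and 0.516 in FAP-like cells, 3.51 times apart, and the dendritic-like ratio was 1.35 with depth bins weighted equally. Egr2 had 1.99 in endothelial-like cells and 0.653 in dendritic-like cells, 3.04 times apart, and the endothelial-like ratio of Egr2 was 1.0 with depth bins weighted equally. Gadd45a had 1.80 in macrophage/monocyte-like cells and 0.586 in tenocyte-like cells, 3.07 times apart, and the tenocyte-like ratio was 1.10 in thinned cells. The thinned ratios of Fosl1, Myc and Gadd45a named here are given without an interval, in classes where fewer members kept the minimum UMI count. Klf2 had 1.76 in myogenic cells and 0.587 in macrophage/monocyte-like cells, 3.0 times apart, and the myogenic ratio was 0.912 with a stricter cell filter, which left 46 myogenic cells in old PBS.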

How the results depend on the processing

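No paired analysis was possible because each group was 1 library. Of 204 recomputed counts, 155 stayed within 1.5 times the reported count and 49 moved. Of 190 recomputed medians, 14 had the other sign. Of 63 named ratios, 17 were past 1.5-fold in each alternative and 10 changed direction in at least 1. The recomputed ratios are given without an interval, so a change of direction was not set apart from counting error. With 1 library per group, no alternative measures replicate error.

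Counts below are members past the threshold, with the share of all genes past it under the same setting in brackets. With 2-fold, the age counts were 0 (2.99%) in macrophage/monocyte-like, 1 (2.23%) in dendritic-like, 2 (1.55%) in T/NK-like, 0 (3.24%) in FAP-like, 1 (2.68%) in tenocyte-like, 4 (4.05%) in endothelial-like and 1 (1.6%) in myogenic cells. For treatment they were 0 (1.54%), 0 (1.51%), 2 (2.0%), 0 (1.57%), 1 (1.58%), 0 (1.96%) and 1 (1.3%) in the same order. With at least 500 UMIs, 21 T/NK-like members were compared, with 2 (5.73%) for age and 2 (3.82%) for treatment, and 33 myogenic members, with 1 (2.03%) for treatment.

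In cells thinned to 2000 UMIs the median log2 ratio was -0.16 for treatment in macrophage/monocyte-like cells, -0.29 for age in T/NK-like cells, 0.24 for age in tenocyte-like cells, and -0.018 for age and 0.21 for treatment in myogenic cells. Counts were 3 of 22 (10.8%) for treatment in T/NK-like cells, 5 of 35 (10.8%) for age and 1 of 35 (6.44%) for treatment in FAP-like cells and 1 of 25 (14.9%) for age in tenocyte-like cells. The reversed ratios were 0.953 for Atf3 (T/NK-like, treatment), 1.26 for Klf10 and 1.10 for Gadd45a (tenocyte-like, age). They are given without an interval, in classes where thinning left fewer members at the minimum UMI count.

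Equal weights for clusters or depth bins were chosen after seeing the data. A depth bin needed at least 20 cells in every library, and cells of other bins were left out. This left 5 bins in macrophage/monocyte-like and endothelial-like cells, 4 in dendritic-like and 3 in FAP-like cells. T/NK-like, tenocyte-like and myogenic cells had 2 bins each. With clusters weighted equally, counts were 4 (8.67%) and 1 (6.46%) in macrophage/monocyte-like cells, 7 (17.8%) for age in dendritic-like cells and 2 (8.89%) for treatment in FAP-like cells, and endothelial-like medians were 0.30 and -0.23. With depth bins weighted equally, medians were 0.18 and -0.19 in macrophage/monocyte-like cells, 0.29 for age in dendritic-like cells, 0.0013 for treatment in FAP-like cells, 0.19 and -0.090 in endothelial-like cells and -0.055 and -0.029 in myogenic cells. Counts were 10 (27.9%) for age in dendritic-like, 8 (19.4%) for age in T/NK-like, 5 (19.5%) and 1 (13.1%) in FAP-like cells, and for treatment 4 (10.2%) in tenocyte-like, 1 (9.02%) in endothelial-like and 5 (12.4%) in myogenic cells. Reversed ratios were 0.897 for Dusp6 (macrophage/monocyte-like, treatment), 0.621 for Atf3 (dendritic-like, treatment) and 0.914 for Fosb (myogenic, age).

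With doublet calls kept, counts were 2 (9.19%) and 3 (9.24%) in T/NK-like cells, and for treatment 4 (7.22%) in tenocyte-like and 4 (6.87%) in myogenic cells, and T/NK-like treatment ratios were 1.17 for Egr1 and 1.26 for Ier3. With the looser cell filter, counts were 2 (10.5%) for age in T/NK-like cells, and for treatment 2 (8.56%) in dendritic-like, 6 (8.35%) in tenocyte-like and 5 (5.84%) in myogenic cells, and Ier3 in T/NK-like cells was at 0.704 and 1.4. With the stricter filter, counts were 5 (8.53%) for treatment in tenocyte-like cells and 10 (13.7% and 9.49%) in both contrasts of myogenic cells, Ier3 was at 0.664 for age in T/NK-like cells, and Klf2 at 0.912 for age in myogenic cells. This filter left 89 tenocyte-like and 46 myogenic cells in old PBS. With the mean of per-cell CPM, treatment medians were -0.18 in macrophage/monocyte-like, -0.0656 in tenocyte-like and -0.042 in myogenic cells, and counts were 7 (12.1%) for age in T/NK-like cells, 1 (14.9%) and 3 (13.7%) for treatment in tenocyte-like and endothelial-like cells, and 13 (14.6%) and 1 (11.8%) in myogenic cells. The age count in FAP-like cells was 4 (12.0%) after division by the median of all genes and 1 (11.3%) at resolution 1.6. The causes of these changes were not tested.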
